A study of Mus musculus with 4 samples.

Results

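Integrins, laminins and the other genes of the cell-matrix interface were followed in 4 tissues of the mouse embryo that lead to the lower jaw and tongue. The members were chosen by gene name, as every gene on the array named as an integrin alpha or beta subunit, laminin chain, nidogen, fibulin (Fbln) or fibrillin. Hspg2, Agrn, Fn1, Vtn, Npnt, Fras1, Frem1 and Frem2 were added. Efemp1 and Efemp2, fibulins under another name, are not members and were read from a list. The choice gave 53 genes, read by 132 probes, of 27247 genes with a name on the array. Where a gene had several probes, the brightest over the 4 tissues was used. The pools held median mandibular arches of 12 embryos at E9.5 (MMA), lateral lingual swellings of 4 embryos at E11.5 (LLS), lateral mandibular arches of 4 embryos at E11.5 (LMA) and median tongues of 4 embryos at E14.5 (T), where E is the embryonic day. The labels give the region of LLS as medial, although its title and the design call it lateral. All embryos were of the outbred ICR stock, untreated and without a genetic change named in the labels. Each pool was read once, as Cy3-labelled RNA on its own Agilent array, and all arrays shared 1 slide.

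Integrins are receptors made of an alpha and a beta subunit that span the cell membrane and hold cells to the matrix around them. Laminins are trimers of an alpha, a beta and a gamma chain, and with nidogens, collagen IV and the heparan sulphate proteoglycans they build the basement membrane, the sheet beneath epithelia and around muscle fibres, vessels and nerves. In oral epithelium a laminin that holds the Lama3 and Lamb3 chains anchors basal cells through the integrin of Itga6 and Itgb4 in hemidesmosomes, whereas in skeletal muscle the Lama2 laminins are bound by the integrin of Itga7 and Itgb1.

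With 1 array per tissue there were no replicates, so no test between tissues was possible and precision is limited by the number of arrays, and a member was counted as higher or lower by size alone, at a difference of at least 2-fold. Levels are given as scaled signals, the background-subtracted intensity divided by the 75th percentile of its array and multiplied by the mean of the 4 percentiles (469), and differences as log2 of the ratio of such signals. A scaled signal can be compared between tissues for 1 probe but not between genes. The SD of a difference between single spots lay between 0.081 and 0.0832 log2 in the 4 comparisons, from 291 probes printed 10 times, which is the error of a spot and holds nothing of how pools differ. Errors given with ± come from the error model of the scanner software. Between 57.0% and 62.9% of the spots that were not controls were well above background on each array, and 0 were saturated. In pooled tissue, fewer cells of a type and less RNA per cell cannot be told apart.

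The tissues were checked against markers. Of 6 regulators of the mandibular arch, 6 were above background in each of MMA, LLS and LMA, and 4 in T, where Dlx5 and Dlx6 were not. All 12 skeletal muscle markers were above background in T, against 9 in LLS, 11 in LMA and 5 in MMA. The labels' extraction text names cerebellum; of 6 cerebellar genes, Atoh1, Gabra6, Calb1 and Neurod1 were not well above background in any tissue, En2 was barely so in MMA (33.2) and LMA (30.3), and Pcp2 was above background in all 4, highest in LMA (1443). The 12 epithelial markers were above background in every tissue, with summed scaled signals of 68906 (MMA), 45219 (LLS), 12629 (LMA) and 288132 (T). These sums are weighted by the brightest probes, in T by Krt5 (81816), Krt14 (82941) and Krt15 (87267) and in MMA by Krt18 (41758) and Krt8 (14893). They do not measure the amount of epithelium. The sums move with several of the results below, and the part of epithelial cells in those results was not tested.

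A few of the probes are shown because they join exons across an intron, so that they pair along their whole length only with a spliced message, and because they read a shared subunit (Itgb1, Lamc1) or an epithelial one (Lamb3, Itgb6). They are 60 bases long, written 5′ to 3′ in lower case as designed on the array.
Itgb1: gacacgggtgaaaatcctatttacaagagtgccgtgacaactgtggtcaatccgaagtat
Lamc1: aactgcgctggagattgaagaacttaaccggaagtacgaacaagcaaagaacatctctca
Lamb3: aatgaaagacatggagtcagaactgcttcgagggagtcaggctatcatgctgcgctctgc
Itgb6: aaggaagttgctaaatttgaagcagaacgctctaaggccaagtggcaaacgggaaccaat
The Itgb1 probe spans chr8:131250081-131255976 on the plus strand, the Lamc1 probe chr1:155077970-155078896 on the minus strand, the Lamb3 probe chr1:195167088-195169619 on the plus strand and the Itgb6 probe chr2:60438632-60443247 on the minus strand (mouse build mm9, as in the files). In the order MMA, LLS, LMA and T, the Itgb1 probe read 1465, 1685, 1685 and 2482 and the Lamc1 probe 476, 288, 307 and 600. The Lamb3 probe read 16.6, 132, 19.4 and 1663 and the Itgb6 probe 21.0, 25.6, 71.1 and 134, where the values of Lamb3 in MMA and LMA and of Itgb6 in MMA were not well above background. The shared subunits were therefore read in all tissues, while the Lamb3 probe was well above background in LLS and T alone. In all, 20 member probes of 16 genes span an intron.

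Of the 53 members, 48 were well above background in at least 1 tissue (90.6%, against 68.6% of all genes), by tissue 44 (MMA), 47 (LLS), 47 (LMA) and 46 (T), and 42 in all 4. The 5 members not well above background anywhere were the leukocyte integrin subunit genes Itgad, Itgae and Itgax, the collagen receptor subunit gene Itga2, and Vtn, which encodes the plasma adhesion protein vitronectin. Of the 48, 27 had their highest level in T, 12 in LMA, 5 in MMA and 4 in LLS, and 19 had their lowest level in MMA. The spread between the highest and lowest tissue was at least 4-fold (2 log2) for 18 members and under 2-fold for 16. The same counts were not made over all genes, so they do not set the members apart. Among all genes too, more were at least 2-fold higher than lower in T against LLS (12.6% and 6.02%) and in LLS against MMA (9.61% and 5.57%). The least variable were the vitronectin receptor subunit gene Itgav (0.21 log2), Itgam (0.26) and Nid2 (0.30).

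**Figure D1:**
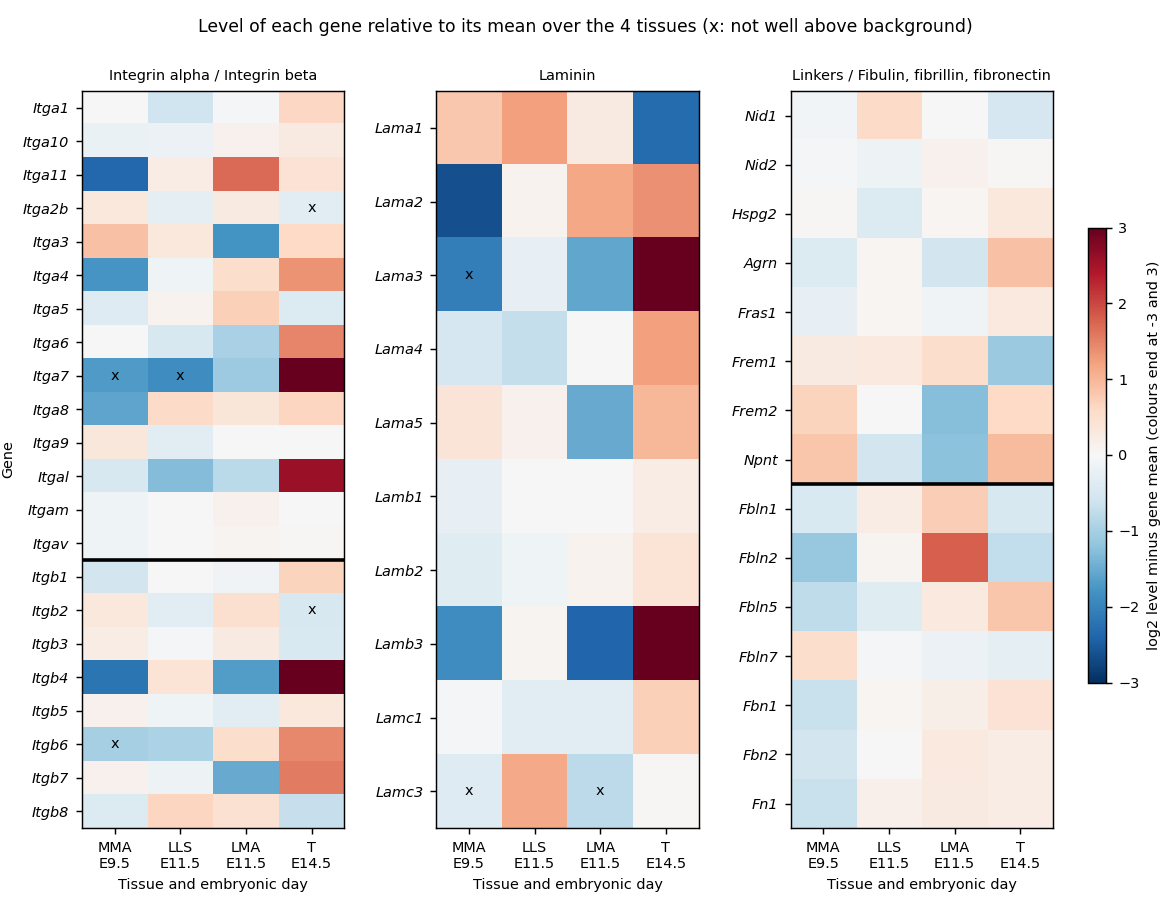
Colour gives the log2 level of 47 of the 48 members in each tissue minus the mean of that gene over the 4 tissues, 1 array per tissue, with red for higher and blue for lower and a cross where a value was not well above background. Lama3, Lamb3, Itgb4 and Itga7 are at their reddest in T, whereas Lama2, Itga11, Itga4 and Itga8 are bluest in MMA and Lama5, Itga3 and Frem2 in LMA.

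The series design names ROKU, a method that looks for genes whose level in 1 tissue stands apart from the rest. By its outlier step, with a gap of at least 2-fold to the nearest other tissue, 20 members were specific to 1 tissue (16 to 23 in the 6 alternative treatments of the data). Among all 18700 genes above background 19.1% were specific to 1 tissue. In T, 9 members were specifically high, among them Itga6, Itga7, Itgal, Itgb4, Itgb7, Lama3, Lama4 and Lamb3, against a background of 7.95%, and Lama1 and Frem1 were specifically low (background 2.55%). Itga4, Itga8, Itga11 and Lama2 were specifically low in MMA (4.17%), and Itga3, Lama5 and Frem2 specifically low in LMA (0.856%). Fbln2 was specifically high in LMA (0.668%) and Lamc3 specifically high in LLS (0.321%).

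LLS and LMA, taken at the same day, were compared to see which matrix and receptor genes set the lingual swellings apart from the neighbouring arch. The laminin chain genes Lamb3, Lama3 and Lama5 and the laminin receptor subunits Itga3 and Itgb4 were higher in LLS, and Lama2, the fibulin gene Fbln2 and the collagen receptor subunit gene Itga11 lower. Among the 48 members compared, 9 were higher in LLS by 2-fold or more and 4 were lower by as much. The background was 3.56% of 17769 genes higher and 2.86% lower, and the median difference was -0.11 for the members and 0.01 for all genes. Of the 22 integrin subunits compared, 3 were higher and 2 lower (median -0.30).

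Lamb3, a beta chain of the laminin under stratified epithelium, gave 43.4 (MMA), 169 (LLS), 30.6 (LMA) and 2805 (T) by its brightest probe (chr1:195170009-195170068, mm9). It was 5.52-fold higher in LLS than in LMA (2.46 ± 0.30 log2). Its partner chain Lama3 gave 86.8 in LLS and 34.7 in LMA (1.32 ± 0.27), with 1518 in T and a value not well above background in MMA. Both chains were thus highest in T and second in LLS, and Lamb3 was lowest in LMA.

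The receptor subunit of that laminin, Itgb4, gave 153 (MMA), 919 (LLS), 218 (LMA) and 7626 (T) (chr11:115869557-115869616) and was 4.21-fold higher in LLS than in LMA (2.07 ± 0.21). Itga6, the alpha subunit that pairs with it, gave 7883, 5686, 4067 and 21973 in the same order by its brightest probe and differed between LLS and LMA by 0.48. A probe of Itga6 placed on another transcript model differed by 1.43, and others by 0.42 and 0.45. Itga6 also pairs with Itgb1, and it was well above background in all tissues. Itga3, which with Itgb1 forms another epithelial laminin receptor, gave 936 (MMA), 639 (LLS), 148 (LMA) and 771 (T) (chr11:94905987-94906046). Its level in LMA stood apart from the other tissues, and the difference between LLS and LMA was 4.31-fold (2.11 ± 0.21).

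Lama5, the alpha chain found under most epithelia, showed the same order of tissues as Itga3 apart from T, with 3721 (MMA), 3074 (LLS), 994 (LMA) and 5631 (T) (1.63 ± 0.20 for LLS minus LMA). Frem2, a large membrane protein that holds epithelium to the underlying matrix together with Fras1 and Frem1, gave 1153, 739, 300 and 1109 (1.30 ± 0.21). Fras1 itself gave 825, 1014, 900 and 1204 and stayed within 2-fold in all 4 comparisons. Lamc3 was well above background in LLS (70.8) and T (32.7) alone, so its difference of 1.93 between LLS and LMA is a lower bound with the floor used here. With normexp background correction it was 0.83. Itgb7, known as the partner of Itga4 and Itgae on leukocytes, gave 142, 117, 45.8 and 384 (1.35 ± 0.24).

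Among the members lower in LLS, Fbln2, a matrix glycoprotein of mesenchyme and basement membranes, gave 1411 (MMA), 3310 (LLS), 10793 (LMA) and 1854 (T) (chr6:91222118-91222177). It was 3.26-fold lower in LLS than in LMA (-1.71 ± 0.20), and LMA was its highest tissue. Itga11, a fibrillar collagen receptor of mesenchymal cells, gave 66.5, 400, 1117 and 460 (-1.48 ± 0.20; chr9:62631667-62631726). Itgb6, an epithelial subunit that pairs with Itgav and binds fibronectin and latent TGF-beta, was dim throughout, at 25.6 in LLS and 71.1 in LMA (-1.48 ± 0.36). The other Itgb6 probe was not well above background in any tissue. Lama2, the alpha chain of muscle basement membrane, gave 755 in LLS and 1580 in LMA (-1.07 ± 0.20).

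Beside these differences, 9 of 12 epithelial markers were higher in LLS by 2-fold or more (median 2.55) and 8 of the 11 skeletal muscle markers compared were lower (median -1.49). Endothelial markers were lower too, 5 of 10 by at least 2-fold, with summed signals of 8534 in LLS and 16669 in LMA. The part of these cell types in the members' differences was not tested. Krt5 (0.33) and Krt14 (0.50), keratins of basal epithelial cells, stayed within 2-fold between LLS and LMA, as did Col17a1 (0.24) and Col7a1 (0.25), collagens of the hemidesmosome and its anchoring fibrils.

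**Figure D2:**
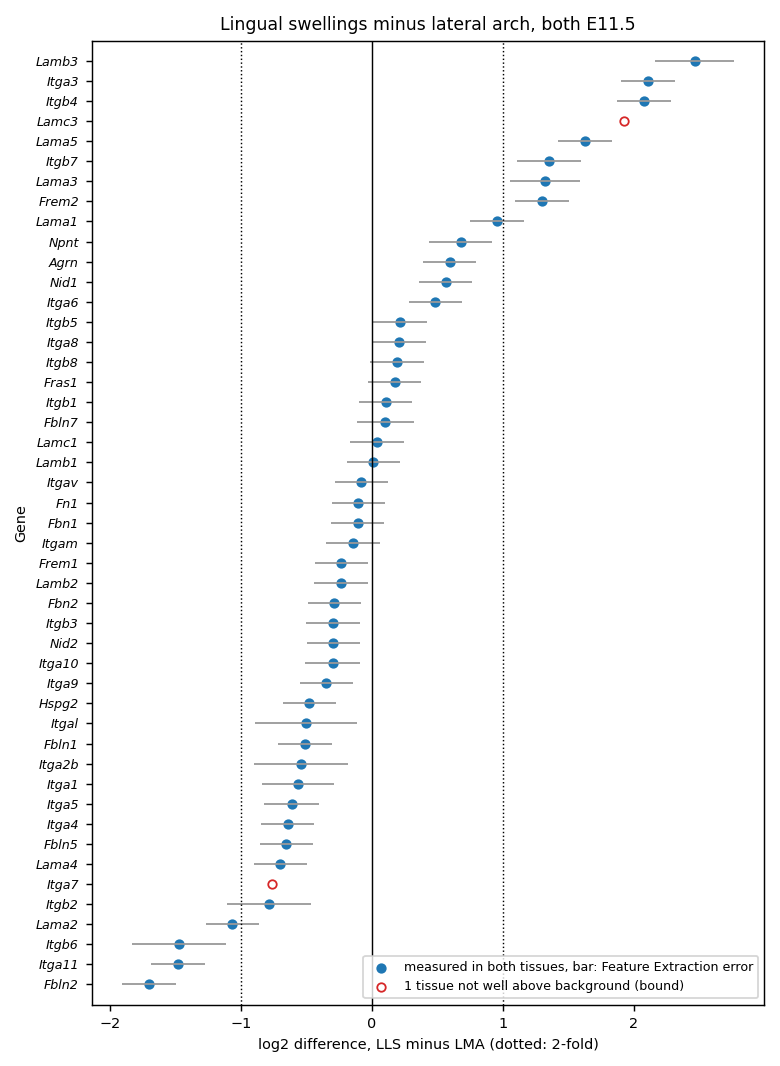
Points give the log2 difference, LLS minus LMA, for 47 of the 48 members compared, sorted by size, with bars for the error of the scanner software and open circles where 1 of the tissues was not well above background. Lamb3, Itga3 and Itgb4 lie beyond 4-fold (2 on the log2 axis) on the side of LLS, and Fbln2, Itga11, Itgb6 and Lama2 beyond 2-fold on the side of LMA.

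The call depended on the treatment of the data for 6 of these 13 members. With normexp background correction, the differences of Itgb6 (-0.44), Itgb7 (0.80), Lama3 (0.67) and Lamc3 (0.83) were under 2-fold. With the median over all probes of a gene, those of Itga11 (-0.81), Itgb4 (0.24), Itgb6 (-0.62) and Lama3 (0.86) were. The other Itgb4 probes were not well above background in LLS or LMA. Its 0.24 is therefore the ratio of the floors in LLS (21.9) and LMA (18.6) and not a measured difference. The other 7 were at least 2-fold under all 6 alternatives. Of 10 other probes of the called members that gave a value, 10 had the same direction and 5 also at least 2-fold. Those of Itga11, Itga3, Lama3 and Lamb3 were well above background only in the tissue where the gene was called higher, so their direction could hardly have differed. The other probes of Itgb4 and Itgb6 gave no value here.

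Lama5 and Lama2, alpha chains that were higher and lower in LLS than in LMA, are shown by the 250 bases before their start, as an example of how unlike these promoters are in base composition. The sequences are from RefSeq (build GRCm38.p6), on the gene's strand and 5′ to 3′, with the GC box GGGCGG or its reverse complement CCGCCC in capitals, at chr2:180225860-180226109 for Lama5 and chr10:27616943-27617192 for Lama2, both on the minus strand.
Lama5: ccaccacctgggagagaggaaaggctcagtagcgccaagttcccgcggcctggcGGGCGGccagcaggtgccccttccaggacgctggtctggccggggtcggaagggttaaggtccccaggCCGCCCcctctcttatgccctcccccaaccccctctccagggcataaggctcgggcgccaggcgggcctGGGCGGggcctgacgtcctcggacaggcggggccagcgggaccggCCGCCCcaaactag
Lama2: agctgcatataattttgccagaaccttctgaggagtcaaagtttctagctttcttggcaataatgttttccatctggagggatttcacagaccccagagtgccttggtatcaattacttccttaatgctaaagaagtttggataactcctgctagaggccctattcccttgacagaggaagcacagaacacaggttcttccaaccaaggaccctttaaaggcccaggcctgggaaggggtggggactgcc
The Lama5 window holds 4 GC boxes and 19 CpG dinucleotides at 72.4% GC, and the Lama2 window 0 GC boxes and 0 CpG at 47.2% GC. Of the 53 members, 35 had a window in the RefSeq table, and these ranged from 43.6% to 83.6% GC. Counting every listed start of these genes, a GC box on either strand lay in 18 of 43 windows (41.9%), against 32.7% of all 32851 windows of that length. The TATA motif TATAAA, on either strand, lay in 1 of the 43, that of Vtn (2.33%), against 12.4% of all windows. These matches describe the sequences and are not sites of binding.

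LLS was then set against MMA, which is earlier by stage and also another part of the arch, so stage and structure cannot be told apart. The members higher in LLS were the laminin chain genes Lama2, Lama3, Lamb3 and Lamc3, the integrin subunit genes Itga4, Itga8, Itga11, Itgb4 and Itgb8, and Fbln2. Among the 47 members compared, 10 were higher in LLS by 2-fold or more and 1 was lower by as much. The background was 9.61% higher and 5.57% lower, and the medians were 0.22 for the members and -0.06 for all genes. The members' median was -0.06 with the median over all probes of a gene, and it was positive in the other 5 alternatives.

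Lama2 showed the largest difference, with 113 (MMA), 755 (LLS), 1580 (LMA) and 1802 (T) (6.68-fold higher in LLS than in MMA, 2.74 ± 0.22; chr10:26701380-26701439). Itga11 was 6.01-fold higher (2.59 ± 0.24) and Itgb4 differed by the same 2.59 (± 0.21). Itga8, a receptor subunit for nephronectin and fibronectin that is known from mesenchyme, gave 150 (MMA), 665 (LLS), 576 (LMA) and 692 (T) (2.15 ± 0.21 for LLS minus MMA). MMA was the lowest tissue for each of these 4 genes, and the later tissues differed little for Itga8.

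Itga4, a subunit of receptors for fibronectin and VCAM1, gave 305, 950, 1485 and 2645 from MMA to T (1.64 ± 0.21 for LLS minus MMA). Lamb3 was 1.96 higher in LLS, and Lama3 (1.82) and Lamc3 (1.52) were higher by lower bounds that hold for the floor used here. Fbln2 was 1.23 higher and Itgb8, which pairs with Itgav and activates latent TGF-beta, 1.05 higher, at 331 in LLS and 160 in MMA. Npnt, the basement membrane ligand of the Itga8 integrin, was the 1 member lower, at 84.0 in LLS and 219 in MMA (-1.38 ± 0.22), so ligand and receptor subunit went opposite ways.

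Skeletal muscle markers were mostly higher in LLS, 7 of the 9 compared by 2-fold or more, and macrophage and leukocyte markers likewise, 9 of 12. The 12 epithelial markers had a median of -0.02, with Krt5 6.02 higher and Krt18 -1.62. The part of these cells in the members' differences was not tested. The calls of 8 of the 11 members depended on the treatment of the data. With the median over all probes, Itga4 (-0.17), Itgb4 (-0.17) and Lama2 (-0.28) had the opposite sign. With normexp, Lama3 (0.81), Lamb3 (0.93), Lamc3 (0.58), Itgb8 (0.80) and Npnt (-0.93) were under 2-fold. Only Fbln2, Itga8 and Itga11 were at least 2-fold under all 6 alternatives.

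LMA was set against the same MMA array, so the values of this comparison share their control with the last one and are given side by side, not as separate support. Lama2, Itga4, Itga8, Itga11 and Fbln2 were higher in LMA too, with Itga5, Itgb6, Fbln1 and Fbln5, and Itga3, Lama5 and Frem2 were among those lower. Of 47 members compared, 9 were at least 2-fold higher in LMA and 6 at least 2-fold lower, against a background of 10.4% higher and 7.13% lower. The medians were 0.21 for the members and -0.09 for all genes.

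Itga11 was 16.8-fold higher in LMA than in MMA (4.07 ± 0.24), at 1117 in LMA and 66.5 in MMA. Lama2 was 14.0-fold higher (3.81 ± 0.21), Fbln2 7.65-fold higher (2.94 ± 0.20), Itga4 4.87-fold higher (2.28 ± 0.21) and Itga8 3.84-fold higher (1.94 ± 0.21). The fibronectin receptor subunit gene Itga5, at 289 in LMA and 135 in MMA (2.14-fold), and the fibulin genes Fbln1, at 10534 in LMA and 4618 in MMA (1.19 ± 0.20), and Fbln5 (1.05 ± 0.20) passed 2-fold here but not in LLS minus MMA, where they were 0.49, 0.68 and 0.40 higher. Itgb6 was higher by 1.53, a lower bound with the floor used here. The difference between these comparisons is the difference between LLS and LMA, which for Itga5, Fbln1 and Fbln5 was -0.61, -0.51 and -0.65.

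Among the 6 members lower in LMA than in MMA were Itga3 (-2.66 ± 0.21), Npnt (-2.06 ± 0.23), Frem2 (-1.94 ± 0.20), Lama5 (-1.90 ± 0.20) and Itgb7 (-1.63 ± 0.24). Apart from Itgb7, these are genes known from epithelia or their basement membrane. All 6 lower calls were at least 2-fold under all 6 alternatives. Epithelial markers moved the same way in these arrays, 8 of 12 at least 2-fold lower in LMA and 2 higher (median -2.50). Beside the higher members, skeletal muscle markers were at least 2-fold higher in 9 of 11 (median 4.26) and macrophage and leukocyte markers in 10 of 12 (median 2.16). The part of these cells in the members' differences was not tested. Among the higher members, Fbln5 (0.95 with normexp), Itga4 (0.55 with all probes), Itga5 (0.77 with normexp) and Itgb6 (0.45 with normexp) lost the 2-fold difference.

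T was set against LLS, from the swellings to the formed tongue, with stage and dissected structure both differing. The chain genes Lama3 and Lamb3, their receptor subunits Itga6 and Itgb4, the muscle laminin receptor subunit Itga7, and the alpha chains Lama2 and Lama4 were higher in T, and the embryonic alpha chain Lama1 was lower. Of 48 members compared, 16 were at least 2-fold higher in T and 5 at least 2-fold lower. The background was 12.6% higher and 6.02% lower, and the medians were 0.40 for the members and -0.08 for all genes. Of the 22 integrin subunits compared, 8 were higher and 1 lower (median 0.38).

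Itga7 showed the largest difference of any member in the 4 comparisons. It gave 1982 in T and 37.2 in LMA and was not well above background in MMA (24.3) or LLS (4.94) (chr10:128395274-128395333). With the floor used here, T was 90.4-fold or more above LLS (a lower bound of 6.50 log2). That bound depends on the treatment of the data, and the difference ranged from 4.31 to 8.65 in the 6 alternatives. Another probe of the gene was well above background in T alone, at 95.1. Itgb1, the beta subunit that pairs with Itga7, Itga3 and most other alpha subunits here, gave 9126 (MMA), 13305 (LLS), 12372 (LMA) and 21329 (T), a difference of 0.68 between T and LLS. The pair therefore differed in pattern, with the alpha subunit near background before T and the beta subunit within 2-fold between T and LLS.

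Lama3 (17.5-fold, 4.13 ± 0.22) and Lamb3 (16.6-fold, 4.06 ± 0.21) were both higher in T than in LLS. Their receptor subunit gene Itgb4 was 8.30-fold higher (3.05 ± 0.20) and Itga6 3.86-fold higher (1.95 ± 0.20). All of these genes were among the members specifically high in T. The exon-junction probe of Lamb3 shown above differed by 3.65.

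The laminin alpha chains went different ways. Lama1, the alpha chain of early embryonic basement membranes, gave 4650 (MMA), 6176 (LLS), 3185 (LMA) and 536 (T) (chr17:68171924-68171983), and T lay below LLS by -3.53 ± 0.20. Lama2 was 1.26 ± 0.20 higher in T, and Lama4, known from vessels, muscle and nerve, gave 792, 687, 1117 and 2665 from MMA to T (1.96 ± 0.20 for T minus LLS). Lama5 was 0.87 higher. Of the shared chains, Lamb1 gave 11218, 13505, 13410 and 15551 and Lamb2 560, 653, 770 and 952, both within 2-fold in all 4 comparisons, while Lamc1 gave 4561, 3788, 3692 and 7655 and just passed 2-fold (1.01 ± 0.20). Lamc3 was 1.11 lower in T, at 32.7 against 70.8 in LLS.

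**Figure D3:**
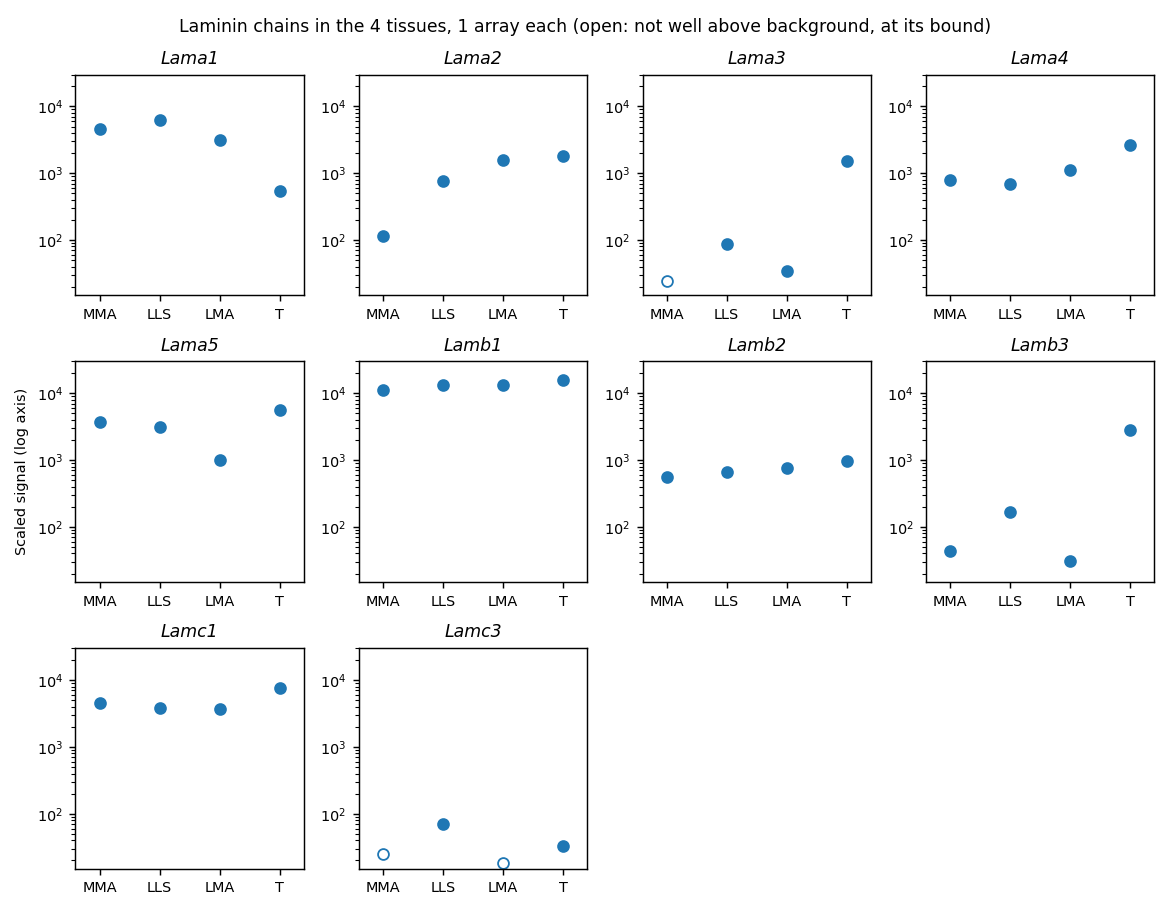
Each of the 10 panels gives the scaled signal of 1 laminin chain gene in the 4 tissues on a log axis, 1 array per tissue and no error bars, with open circles for values not well above background, drawn at the lowest well-above-background signal of their array. Lama3 and Lamb3 reach 1518 and 2805 in T, Lama1 is at 536 there, and Lamb1 stays between 11218 and 15551.

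Among the other receptor subunits, Itgb6 was 5.25-fold higher in T, at 134 against 25.6 in LLS (2.39 ± 0.35). Its other probe was not well above background in any tissue, T included, and the lowest difference among the alternatives was 1.01. Itga4 was 1.48 ± 0.20 higher and Itgb7 1.71 ± 0.21 higher, at 384 in T and 117 in LLS. Itga1, a collagen IV receptor subunit, was dim at 104 in T and 44.5 in LLS (1.22 ± 0.27). Itgb8 was the 1 integrin subunit at least 2-fold lower in T, at 131 against 331 in LLS (-1.33 ± 0.21), but its other probe above background in both tissues differed by -0.34. Itgav itself gave 3103, 3396, 3594 and 3466 from MMA to T and varied least of all members.

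Itgal, a leukocyte integrin subunit, gave 363 in T and 24.5 in LLS (14.8-fold, 3.89 ± 0.35), with 43.6 in MMA and 34.7 in LMA. Its partner subunit gene Itgb2 was not well above background in T (26.9), against 30.0 in LLS, and both other probes of Itgal were not well above background in any tissue. Leukocyte markers were mixed in the same pair, with Lyz2 2.20 higher in T and 8 of 12 markers at least 2-fold higher, but the pan-leukocyte gene Ptprc -0.32 and Coro1a -1.23. With the median over all probes, the Itgal difference was 0.22. Both medians fell on probes not well above background, so 0.22 is the ratio of the floors in T (25.5) and LLS (21.9) and not a measured difference. Itgam, the subunit of myeloid cells, gave 6214, 6709, 7427 and 6751 from MMA to T by its brightest probe, while its other probe gave at most 29.9, and only in LMA was that well above background.

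Of the genes that link the network together, Nid1, which joins laminin to collagen IV, was lower in T, at 2279 against 4848 in LLS (-1.09 ± 0.20), whereas its relative Nid2 gave 785 and 683 (0.20 ± 0.20). The Nid1 difference was -0.90 with cyclic loess and -0.98 in the authors' deposited table. Agrn (0.84) and the perlecan gene Hspg2 (0.74) stayed within 2-fold. Frem1 was lower in T, at 1017 against 2710 in LLS (-1.41 ± 0.20), while Frem2 (0.58) and Fras1 (0.25) of the same complex were within 2-fold. Npnt was 2.84-fold higher in T, at 238 against 84.0 in LLS (1.50 ± 0.22), and its levels in T and MMA lay close together.

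Of the interstitial matrix genes, Fbln5, which takes part in elastic fibre assembly, was 2.31-fold higher in T than in LLS (1.21 ± 0.20). Fbln1 gave 4561 in T and 7394 in LLS (-0.70) and Fbln2 1854 in T and 3310 in LLS (-0.84). Fn1, the fibronectin gene, gave 8857 (MMA), 15655 (LLS), 16834 (LMA) and 16437 (T), and was within 2-fold in all 4 comparisons, as were the fibrillin genes Fbn1 and Fbn2 and Fbln7. Fn1 and both fibrillin genes had their lowest level in MMA.

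**Figure D4:**
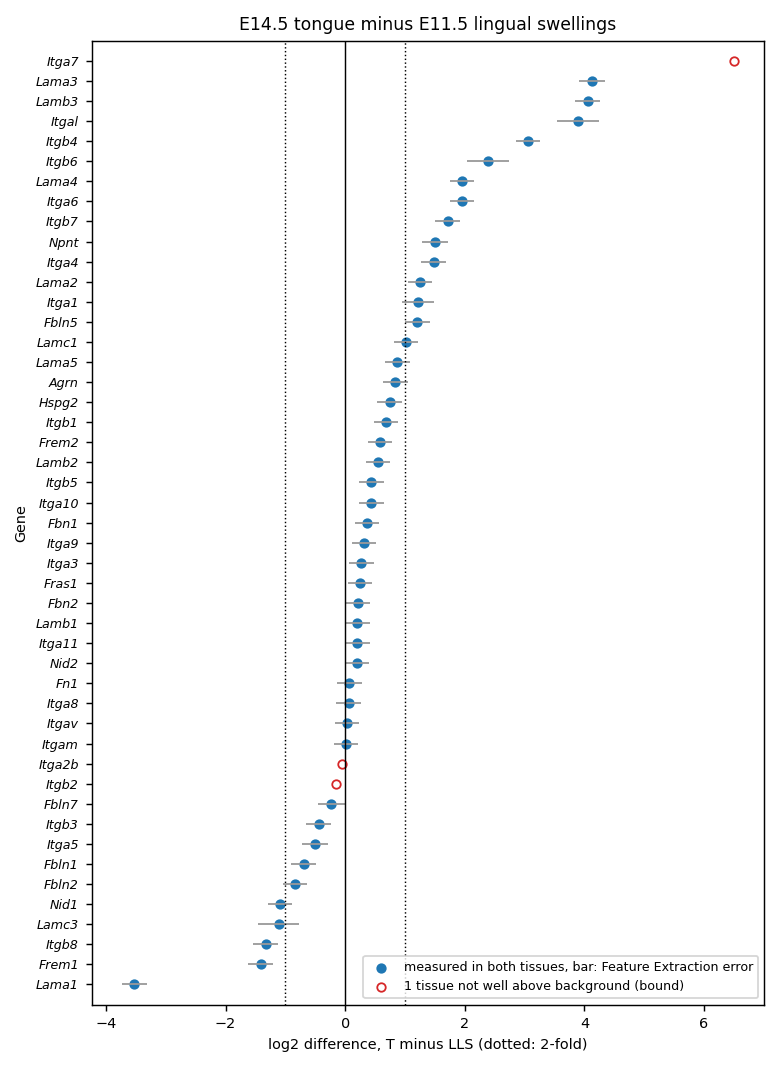
Points give the log2 difference, T minus LLS, for 47 of the 48 members compared, sorted by size, with bars for the error of the scanner software and open circles where 1 of the tissues was not well above background. Itga7, at a bound of 6.50, lies farthest on the side of T, followed by Lama3, Lamb3 and Itgal, and Lama1, at -3.53, farthest on the side of LLS.

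Beside the higher members, all 12 skeletal muscle markers were at least 2-fold higher in T (median 6.96), with summed signals of 310237 in T and 4015 in LLS. Of 12 epithelial markers 4 were at least 2-fold higher in T and 2 lower (median 0.54), and their summed signal was 288132 in T and 45219 in LLS, with Krt5 (5.34), Krt14 (5.36) and Krt15 (2.94) higher and Cldn6 (-1.81) and Cldn7 (-1.03) lower. Primitive erythroid markers were lower, at 42834 in T and 423974 in LLS, and endothelial markers stayed within 2-fold (10 of 10). Schwann cell markers were at least 2-fold higher in 4 of 8 and lower in 0, with summed signals of 5894 in T and 2115 in LLS, and smooth muscle and pericyte markers higher in 4 of 8 and lower in 2 (31282 in T and 18508 in LLS). The part of these cells in the members' differences was not tested.

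With the median over all probes of a gene, 45 of the 60 calls in the 4 comparisons were still at least 2-fold. Of 28 other probes of the members called in T minus LLS that gave a value, 27 had the same direction and 22 also at least 2-fold. The same counts were 7 and 4 of 9 in LLS minus MMA and 12 and 9 of 14 in LMA minus MMA. In each of these comparisons several of the other probes were well above background in only 1 tissue of the pair, where their direction could hardly have differed. The exception in T minus LLS was a probe of Itga6 at chr2:71690633-71690692, placed on another transcript model of the gene, which gave 4009 (MMA), 6406 (LLS), 2377 (LMA) and 1677 (T) (-1.93 for T minus LLS), while the brightest probe at chr2:71694756-71694815 gave 1.95 and another probe 2.02. With the median over all probes, Itga6 was -0.56, Itga1 0.15 and Itgb8 -0.10. The Itga6 value set different probes against each other, at 1677 in T and 2473 in LLS. The Itga1 value set the floor in T (25.5) against a probe in LLS (23.0) that was not well above background, so it is not a measured difference. A probe of Fn1 differed by -1.07 where the brightest differed by 0.07, and a dim probe of Lama2 differed by -1.36 between LLS and MMA where the brightest differed by 2.74. With normexp, Itga1 (0.56), Itgb8 (-0.97), Lamc3 (-0.53) and Npnt (0.98) were under 2-fold, and 14 of the 21 calls were at least 2-fold under all 6 alternatives.

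**Figure D5:**
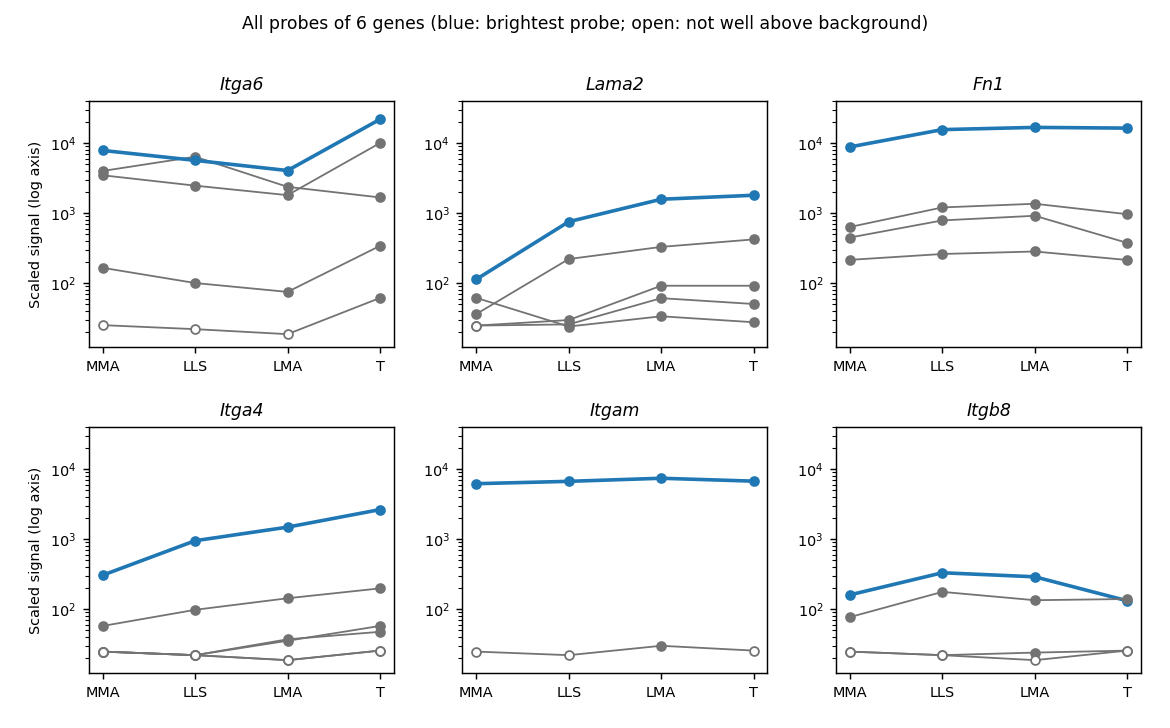
Each line joins the scaled signals of 1 probe in the 4 tissues on a log axis, for 6 genes with several probes, with the brightest probe in blue and open circles for values not well above background. In Itga6, 1 probe reads 1677 in T while the brightest reaches 21973, and in Itgam the brightest lies at 6214 to 7427 while the other is near background.

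Genes of the same structures that are not members were read from lists. Of 22 other basement membrane genes, 18 were compared between LLS and LMA, where 4 were higher in LLS by 2-fold or more and 0 lower (median 0.25): the laminin receptor gene Bcam (2.34), Vwa2 (2.12), Smoc1 (1.64) and Smoc2 (1.03). Between T and LLS, 7 of 17 were higher and 1 lower (median 0.83). The hemidesmosome and anchoring fibril collagens Col7a1 (16484 in T and 460 in LLS, 5.16) and Col17a1 (4300 in T and 183 in LLS, 4.55) led, followed by the collagen IV chains Col4a6 (4.24) and Col4a5 (2.48) with Egfl6 (2.83) between them, whereas Col4a1 (0.12) and Col4a2 (0.20) stayed within 2-fold. Smoc1 was lower in T (-4.15). Col4a6 gave 735 (MMA), 77.9 (LLS), 44.8 (LMA) and 1471 (T), so both E11.5 tissues lay below the earlier and the later one. Against MMA, 5 of 18 of these genes were higher and 1 lower in LLS, and 3 of 19 were higher and 5 lower in LMA. Of all genes, 3.56% were higher and 2.86% lower in LLS than in LMA, and 12.6% and 6.02% in T than in LLS. Against MMA the shares of all genes were 9.61% and 5.57% in LLS, and 10.4% and 7.13% in LMA.

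Integrin adaptor and focal adhesion genes were mostly within 2-fold. Of 19 compared, 1 was at least 2-fold higher in T than in LLS and 0 lower (median 0.13), and that was Itgb1bp2, the muscle gene for melusin, at 3446 in T and 27.2 in LLS (6.99). Talin (Tln1, 0.07), integrin-linked kinase (Ilk, 0.22) and vinculin (Vcl, 0.49) differed by less than 2-fold. Between LLS and LMA, 1 of 20 was higher, the epithelial kindlin gene Fermt1 (a lower bound of 1.44), and 2 lower, Parvb (-1.25) and Parvg (a bound of -1.17). Against MMA, 1 of 18 was higher and 2 lower in LLS, and 2 of 20 were higher and 2 lower in LMA. The shares of all genes were 3.56% higher and 2.86% lower in LLS than in LMA, and 12.6% and 6.02% in T than in LLS. They were 9.61% and 5.57% in LLS than in MMA, and 10.4% and 7.13% in LMA than in MMA. With 1 or 2 genes in each count, none of these counts is read as a result about adaptors.

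Elastic fibre and microfibril genes, the partners of the member fibulins and fibrillins, were counted likewise, with Efemp1 and Efemp2 among them. Of 14, 8 were higher in LLS than in MMA by 2-fold or more and 1 lower (median 1.11), 10 higher and 0 lower in LMA than in MMA (median 1.34), and 7 higher and 0 lower in T than in LLS (median 1.002). The shares of all genes higher in these pairs were 9.61%, 10.4% and 12.6%, and of all genes lower 5.57%, 7.13% and 6.02%. Between LLS and LMA, 2 were higher, Efemp1 (1.37) and the crosslinking enzyme gene Lox (1.36), and 0 lower, against 3.56% and 2.86% of all genes. In T, Mfap5 gave 2746, against 77.7 in LLS (5.14), Lox 2226 against 184 (3.60) and Ltbp4 10716 against 1265 (3.08). The LLS array serves in 3 of these comparisons and the MMA array in 2, so their counts are not independent.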

How the data were processed

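The scanner files deposited by the authors hold intensity per spot, background-subtracted and detrended by Agilent Feature Extraction (version 10.7.1.1 per the file headers, 9.5.1.1 per the submitters' processing notes). The deposited value table also holds intensity, on a linear scale and in 4 columns of nearly 1 distribution; its normalization is not given in the sources used here. Here, flagged spots were left out, spots of a probe averaged, and log2 of the processed signal taken minus the 75th percentile of the array. Dim values were raised to the lowest well-above-background signal of their array, and differences from such values are bounds. These bounds hold for this treatment of the data alone, and some were smaller under the alternatives. A gene was compared where either tissue of a pair was above background. R 4.3.3, limma 3.58.1 (normexp with offset 50, quantile, cyclic loess), Python 3.11.15 and pandas 2.3.3 were used. The counting step was run on simulated data with spot noise alone (SD 0.1) and every probe taken as above background. That run could not test the filter, the floor or the choice of probe. Of the 53 members, 48 matched RefSeq by accession and 5 by symbol, and 13 had 1 probe. Members, lists and tests were chosen with earlier results of these data known. Any member could be named, with values in all tissues for those at least 2-fold different and their partners, and list genes by value. The tissue check genes were chosen later. Nothing pairs the samples and all arrays shared 1 slide and scan, so no batch term was fitted. Results for 1 member are not reported here, though counts over all members include it.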

Additional observations from a re-analysis of the deposited data

How the results depend on the processing

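The alternatives run were 6 in number: normexp background correction, quantile and cyclic loess normalization, dim probes neither filtered nor floored (no filter), the median over all probes of a gene, and the authors' deposited value table. Of the 60 differences of members of at least 2-fold, 60 kept their direction with each of the first 4 and with the deposited table, and 56 with all probes; 44 were also at least 2-fold with normexp, 58 with quantile, 59 with loess, 60 with no filter, 45 with all probes and 57 in the deposited table. The 4 with the opposite sign with all probes were Itga4 (-0.17), Itgb4 (-0.17) and Lama2 (-0.28) in LLS minus MMA and Itga6 (-0.56) in T minus LLS. Those of Itga4 and Itgb4 are the ratio of the floors of the 2 arrays, not measured reversals. Those of Lama2 and Itga6 set different probes against each other. In all, 35 of the 60 were at least 2-fold under every alternative. In LLS minus MMA, the count of members higher was 6 with normexp and 6 with all probes, against 10, and the count lower 0 with normexp and 3 with no filter, against 1. In T minus LLS the count lower was 3 with normexp, against 5. The median over members in LLS minus MMA (0.22) was 0.31 with quantile, 0.32 with loess, 0.31 in the deposited table and -0.059 with all probes. Medians with loess were -0.21 in LLS minus LMA, 0.36 in LMA minus MMA and 0.57 in T minus LLS, and with all probes 0.093 in LMA minus MMA and 0.21 in T minus LLS. The cause was not tested. Loess moved the median of all genes by 0.11 in LLS minus MMA, 0.14 in LMA minus MMA and 0.15 in T minus LLS, and no filter by -0.11 in LLS minus MMA and 0.16 in T minus LLS. Over all genes, calls higher and lower in LLS minus LMA were 632 and 509, against 363 and 207 with normexp and 1483 and 1830 with no filter. In LLS minus MMA they were 1647 and 954, against 977 and 550 with normexp and 2831 and 2057 with no filter. In LMA minus MMA they were 1856 and 1267, against 1120 and 755 with normexp and 3330 and 2263 with no filter. In T minus LLS they were 2226 and 1068, against 1412 and 605 with normexp and 3497 and 2035 with no filter. No paired analysis was possible because each tissue has 1 array. Dim members, such as Itgb6, Lamc3, Itga1 and Itgal outside T, lie near background, where the error of a difference is largest.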
